A study of Mus musculus with 4 samples.

Results

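The genes described here are 10 genes of DNA replication and mitosis: Mcm2, Mcm3, Mcm4, Mcm5, Mcm6, Mcm7, Pcna, Mki67, Birc5 and Aurkb. They were chosen by name, as standard genes of proliferating cells, out of 21631 protein-coding genes of the gene table, and Fos signal was read inside each gene and up to 50 kb beyond either end. These 10 stretches held 302 of the 178981 summits of the series, a summit being the position of highest signal in an enriched region. The study mapped Fos, a subunit of the AP-1 transcription factor, in the colonic epithelium of wild-type mice by CUT&Tag, in which an antibody guides the transposase Tn5 to cut DNA where the protein sits. There were 2 libraries from healthy controls and 2 from mice that had recovered from colitis caused by dextran sodium sulfate in the drinking water (1 to 1.5%, given over 3 cycles of 7 days, each with 10 days of rest), sampled 22 days after it ended. All 4 libraries shared 1 batch label, and the labels state neither age nor strain. The deposited peaks formed 1 list for the whole series, so healthy and recovered colon could not be compared, and the values carry no replicate error and no test.

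MCM2 to MCM7 form the ring-shaped helicase that is loaded onto origins in G1 and unwinds DNA in S phase. PCNA is the sliding clamp that holds DNA polymerases on the template, Ki-67 (Mki67) coats mitotic chromosomes and marks cycling cells, and survivin (Birc5) and Aurora B (Aurkb) belong to the chromosomal passenger complex that controls chromosome attachment and cytokinesis. In the colon these genes are expressed mainly by dividing cells at the crypt base, and E2F factors drive many of them at the G1 to S transition. The scraped mucosa held dividing and non-dividing cells together, so many cells with little Fos at a site and few cells with much of it cannot be told apart.

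Signal strength is given as the authors' fold enrichment, a linear ratio over background, and as the pileup, the number of DNA fragments that overlap the summit, with an exact 95% Poisson interval that covers counting error only. Over the whole list the median fold was 6.73 (quartiles 4.09 and 15.4) and the median pileup 27 fragments. A boundary summit lay within 1000 bp of either end of the gene, and a distal summit lay in the gene or its 50 kb flanks but at no end of any protein-coding gene. The markers of colonic epithelium had a boundary summit at 12 of 12 genes, with highest folds of 8.18 (lowest) to 173 (Krt8). Of 10 leukocyte markers 2 had one, Itgam (104, at the end where transcription stops) and Cd4 (4.81), and of 10 fibroblast, muscle and endothelial markers 2 had one, Col1a1 (6.98) and Pdgfra (4.33). The other 8 of each of these 2 lists had none, Ptprc, Cd3e, Col3a1 and Pecam1 among them. This concerns boundaries only: both lists had a median of 10.5 distal summits per gene, against 10 over all protein-coding genes.

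All 10 genes carried Fos signal at a boundary, against 62.0% of all protein-coding genes, and it lay at the end where transcription starts. The RefSeq promoter table gave a strand for 8 of the 10 genes, all but Mcm4 and Aurkb. At the start, 8 of these 8 had a summit, against 59.3% of 17274 protein-coding genes with a strand. At the far end 2 of the 8 had one, against 17.5%. Those 2 were weak: 1 summit of fold 5.29 in Mcm5 and 1 of fold 4.33 below Pcna. Most of the promoter windows of these genes, which run from 250 bp before to 50 bp after the start of transcription, held the summit itself. A summit fell inside 8 of 9 such windows of the 8 genes, against 42.4% of the 21045 windows of protein-coding genes, and the exception was Mki67.

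In 7 of these 8 genes a promoter window held the strongest boundary summit of the gene. The windows of 5 of the 7 are shown: Mcm7 and Pcna for their high boundary folds, and Mcm3, Mcm5 and Mcm6 for the E2F letters TTTGGCGC. They are from RefSeq, build GRCm38.p6, read 5′ to 3′ along the gene, with base 251 as the start of transcription. Capitals mark every match, on either strand, to the motifs searched: the AP-1 site TGANTCA, the cAMP response element TGACGTCA, the E2F sites TTTCCCGC and also TTTGGCGC, the CCAAT box, the cell cycle homology region TTTGAA, the GC box GGGCGG and the TATA box TATAAA. No matches to different motifs overlapped.
Mcm3, chr1:20820263-20820562, minus strand, summit at base 116: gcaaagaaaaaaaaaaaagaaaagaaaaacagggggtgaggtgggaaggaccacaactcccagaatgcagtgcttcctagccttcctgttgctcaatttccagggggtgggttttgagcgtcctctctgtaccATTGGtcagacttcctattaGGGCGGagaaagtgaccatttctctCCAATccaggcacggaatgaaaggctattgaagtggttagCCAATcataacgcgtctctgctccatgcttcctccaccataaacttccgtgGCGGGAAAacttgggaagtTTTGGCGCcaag
Mcm5, chr8:75109259-75109558, plus strand, summit at base 270: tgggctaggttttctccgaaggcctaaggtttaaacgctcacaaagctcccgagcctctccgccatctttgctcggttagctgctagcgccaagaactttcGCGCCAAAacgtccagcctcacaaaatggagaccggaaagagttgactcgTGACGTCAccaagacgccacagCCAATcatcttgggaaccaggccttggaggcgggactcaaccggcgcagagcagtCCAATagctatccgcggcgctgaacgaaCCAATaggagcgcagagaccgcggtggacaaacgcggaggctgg
Mcm6, chr1:128359656-128359955, minus strand, summit at base 146: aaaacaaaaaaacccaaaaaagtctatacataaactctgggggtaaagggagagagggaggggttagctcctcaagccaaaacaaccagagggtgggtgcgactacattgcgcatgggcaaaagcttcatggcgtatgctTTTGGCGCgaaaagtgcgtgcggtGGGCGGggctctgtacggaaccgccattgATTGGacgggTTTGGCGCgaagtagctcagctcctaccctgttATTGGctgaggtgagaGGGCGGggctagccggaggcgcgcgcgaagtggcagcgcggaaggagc
Mcm7, chr5:138171217-138171516, minus strand, summit at base 274: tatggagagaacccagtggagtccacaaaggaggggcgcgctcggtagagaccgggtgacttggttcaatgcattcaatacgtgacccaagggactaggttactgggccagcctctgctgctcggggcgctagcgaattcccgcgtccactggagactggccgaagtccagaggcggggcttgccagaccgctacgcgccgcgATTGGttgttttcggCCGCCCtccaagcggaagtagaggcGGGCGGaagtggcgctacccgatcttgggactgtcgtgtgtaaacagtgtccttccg
Pcna, chr2:132253131-132253430, minus strand, summit at base 72: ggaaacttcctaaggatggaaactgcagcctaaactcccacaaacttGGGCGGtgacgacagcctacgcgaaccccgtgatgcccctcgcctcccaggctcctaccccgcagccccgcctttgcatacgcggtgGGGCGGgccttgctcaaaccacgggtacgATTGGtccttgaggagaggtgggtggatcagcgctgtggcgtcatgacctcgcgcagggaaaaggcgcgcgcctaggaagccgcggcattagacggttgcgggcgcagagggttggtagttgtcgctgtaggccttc

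None of the 9 windows held the AP-1 letters TGANTCA, which 7.81% of the 32817 windows in the table contained. Those 32817 windows are not limited to the 21045 of protein-coding genes. Shares of motifs, GC and CpG over the latter alone are not given here. The E2F letters TTTGGCGC were found in 3 of the 9, those of Mcm3, Mcm5 and Mcm6 (with 2 copies in Mcm6, at bases 141 to 148 and 204 to 211), against 0.515% of all windows. TTTCCCGC was found in 2, in Mcm3 at bases 270 to 277 and in the other window of Mcm7, against 1.07% of all. A CCAAT box, the site of NF-Y, lay in 8 of the 9 windows against 37.4%, and Birc5 was the one without it. GC boxes lay in 8 of 9 against 35.6%, with Mcm5 as the exception. The cAMP response element TGACGTCA was searched apart from the AP-1 letters. It occurred in Mcm5 alone among the 9, at bases 152 to 159, against 1.79% of all windows. A lack of TGANTCA does not show that a window holds no site that Fos can bind. TTTGAA lay in the windows of Mcm2 and Mki67 (2 of 9 against 17.9%), and TATAAA in none (13.6% of all). The windows had a median GC content of 57.7% (48.7 to 72.7) against 52.7% over all windows, and a median ratio of observed to expected CpG of 0.875 (0.452 to 1.00) against 0.383. These matches describe letters, and binding of the named factors was not measured.

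The highest boundary fold of the strongest gene was 8.04 times that of the weakest. The median over the 10 of the highest boundary fold was 34.8, against 27.4 over all 13405 protein-coding genes with a boundary summit, and 8 of the 10 were above the latter. Pcna was highest and Aurkb lowest. The 3 strongest, Pcna, Mcm7 and Mcm4, were also the 3 with another coding gene within 158 bp of the end that carried the signal: Cds2 lies 158 bp from Pcna, Prkdc 44 bp from Mcm4, and Ap4m1 overlaps Mcm7. A summit there cannot be given to either gene of a pair.

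Among the helicase genes, Mcm7 (chr5:138164583-138172111) had summits of fold 81.1 and 58.0, with pileups of 336 (301 to 374) and 240 (211 to 272), in a region 2080 bp wide. They stood 23 bp after and 141 bp before the RefSeq starts of transcription of Mcm7. The highest fold exceeded that of 91.2% of all protein-coding genes. The gene also hosts the microRNA genes Mir25, Mir93 and Mir106b, and the summit nearest to any of them was 4249 bp away, at the boundary of Cops6. Mcm4 (chr16:15623897-15637400) had 3 summits at its upper end, of fold 9.86, 65.7 and 26.0. The strongest, with a pileup of 272 (241 to 306), lay 234 bp above Mcm4 and inside Prkdc, the DNA-dependent protein kinase of double-strand break repair. Mcm2 (chr6:88883474-88898780) peaked at fold 35.1, 145 fragments (122 to 171), 73 bp before its start, with a weak shoulder of fold 4.09.

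The other 3 helicase genes were weaker at the start. Mcm5 (chr8:75109468-75128439) had summits of fold 34.6 at 19 bp after the RefSeq start and 22.9 at 681 bp before it, with 143 (121 to 168) and 94 (76.0 to 115) fragments. Mcm6 (chr1:128331575-128359705) reached fold 27.7, 114 fragments (94.0 to 137), at 105 bp before the start, and 6.73 inside the gene. Mcm3 (chr1:20802966-20820312) had a single boundary summit of fold 21.4, 88 fragments (70.6 to 108), at 135 bp before its start, in a region of 613 bp, the narrowest among the strongest boundary regions of the 10. The pileup intervals of Mcm2, Mcm5 and Mcm6 overlapped, so counting error alone does not order them, and that of Mcm3 overlapped with that of Mcm6. Those of Mcm4 and Mcm7 overlapped with each other and lay above the other 4. No overlap means only that counting error is smaller than the difference.

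The clamp gene Pcna (chr2:132249286-132253180) had the strongest start of the 10. Its summits of fold 133 and 103 held 554 (509 to 602) and 428 (388 to 471) fragments at 179 bp before and 309 bp after the start of transcription. This was above the boundary fold of 97.1% of all protein-coding genes. The higher summit stood nearer to Cds2, a CDP-diacylglycerol synthase of phospholipid synthesis, than to Pcna. Mki67 (chr7:135689784-135716450) had the most boundary summits, 5 in a region of 2119 bp, of fold 34.9, 10.6, 6.73, 4.57 and 3.37. The strongest had 144 fragments (121 to 170) and lay 333 bp before the start, outside the promoter window.

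Of the passenger complex genes, Aurkb had the lowest boundary fold, while that of Birc5 lay above those of Mcm3 and Mcm6. The pileup interval of Birc5 overlapped with those of Mcm3 and Mcm6, so counting error alone does not order these genes. Birc5 (chr11:117849237-117855743) peaked at fold 29.3, 121 fragments (100.4 to 145), 18 bp after its start, with summits of fold 16.6 and 3.61 before it. Aurkb (chr11:69045624-69051664) had 1 boundary summit, 64 bp inside its lower end, of fold 16.6 with 68 fragments (52.8 to 86.2). Its interval lay below those of the other genes except Mcm3. Even so, the Aurkb fold exceeded the boundary value of 59.4% of all protein-coding genes, of which those without a boundary summit count as 0.

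**Figure D1:**
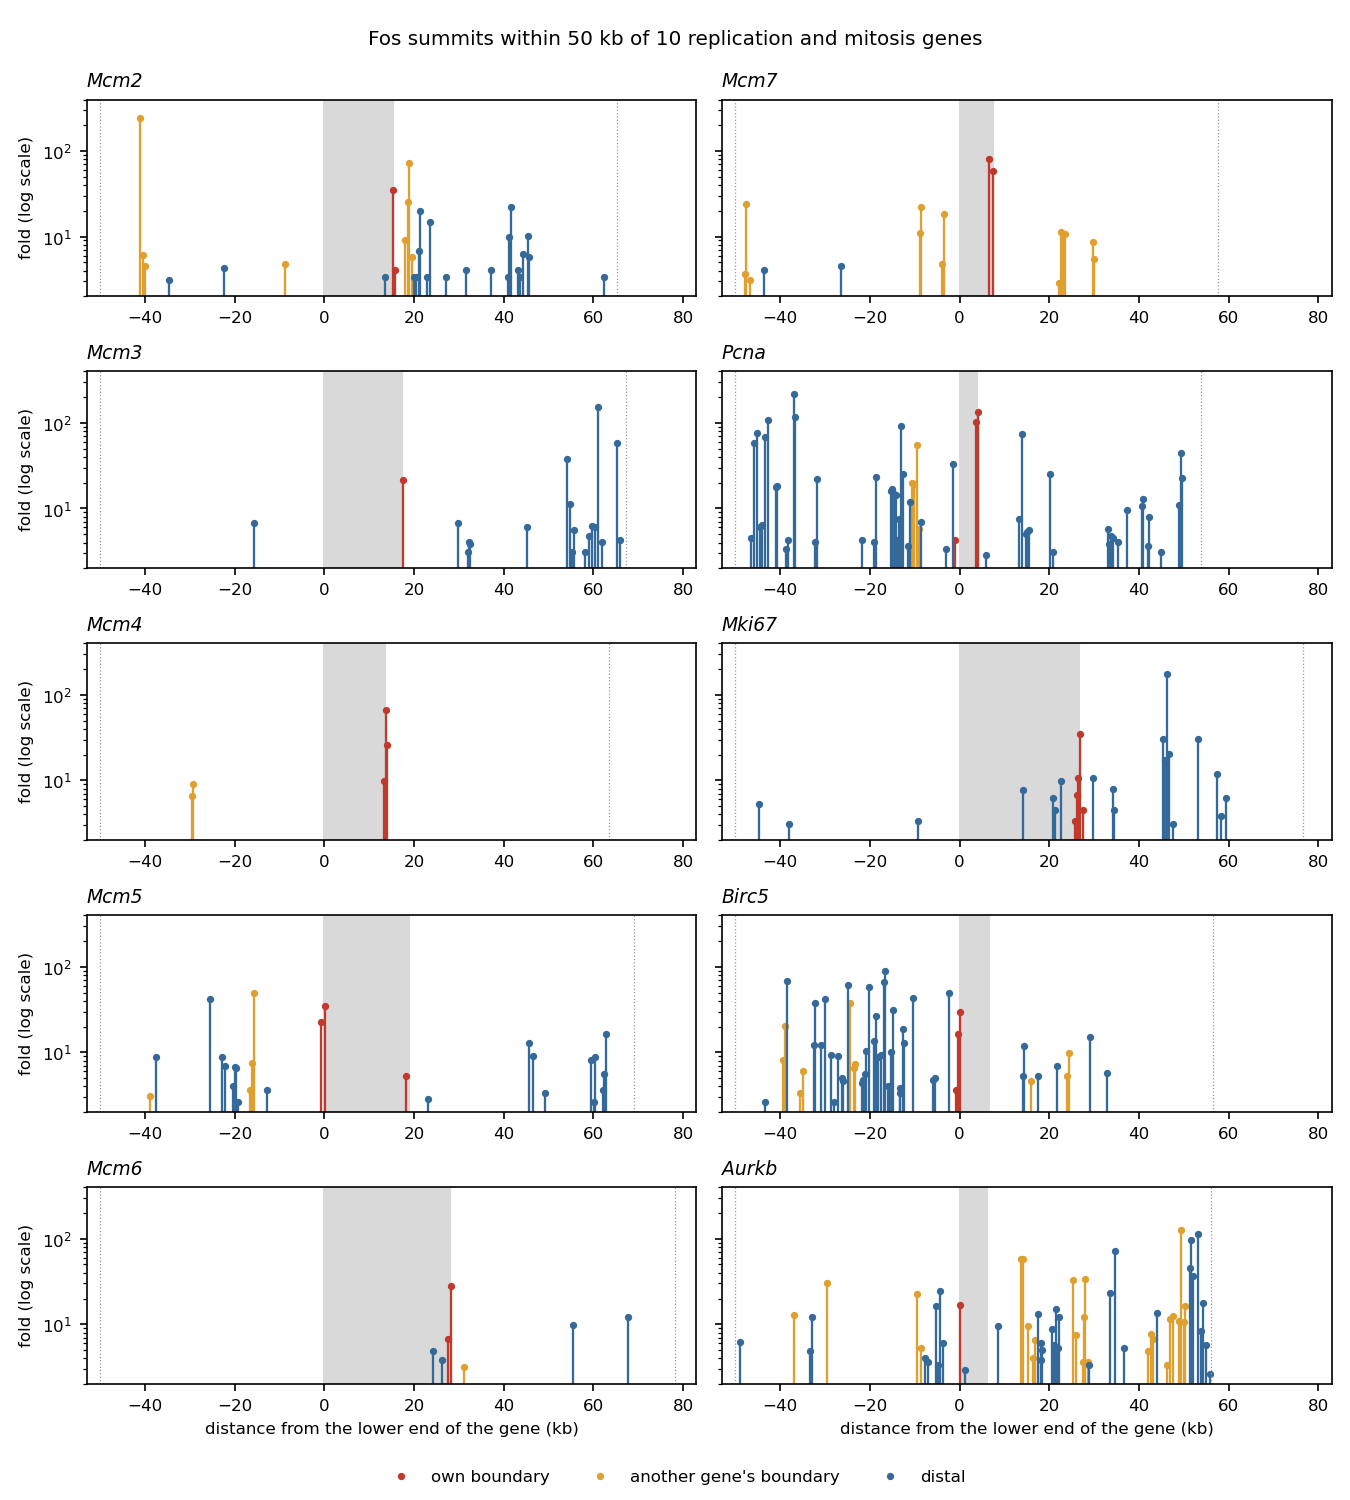
Fos summits around each gene, by distance from the lower end of the gene (kb) and authors' fold enrichment (log axis). Grey marks the gene, dotted lines the limits of 50 kb, and colours the kind of summit; in every panel the red boundary summits of fold above 10 sit at a single end of the gene, while blue distal summits vary from 0 at Mcm4 to 53 at Pcna.

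Away from the boundaries the genes differed far more. The 302 summits were 25 at the genes' own boundaries, 67 at a boundary of another coding gene, and 210 distal. The median fold was 21.4 (quartiles 6.73 and 34.9) at own boundaries, 9.14 (5.29 and 19.6) at other genes' boundaries and 6.73 (4.09 and 15.2) for distal summits. In the whole list, summits at any coding gene's boundary had a median of 10.3 and all others 6.25. Numbers of distal summits ran from 0 at Mcm4, 2 at Mcm7 and 4 at Mcm6 through 18 at Mcm3, 19 at Mcm5, 19 at Mki67 and 21 at Mcm2 to 33 at Aurkb, 41 at Birc5 and 53 at Pcna. The median was 19, against 10 over all protein-coding genes, and 127 of the 210 (60.5%) belonged to Pcna, Birc5 and Aurkb. Counting only distal summits to which the gene itself was the nearest coding gene, the median was 1.5, against 2 over all protein-coding genes. Mcm4 was the 1 gene of the 10 with no distal summit, against 16.0% of all protein-coding genes.

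**Figure D2:**
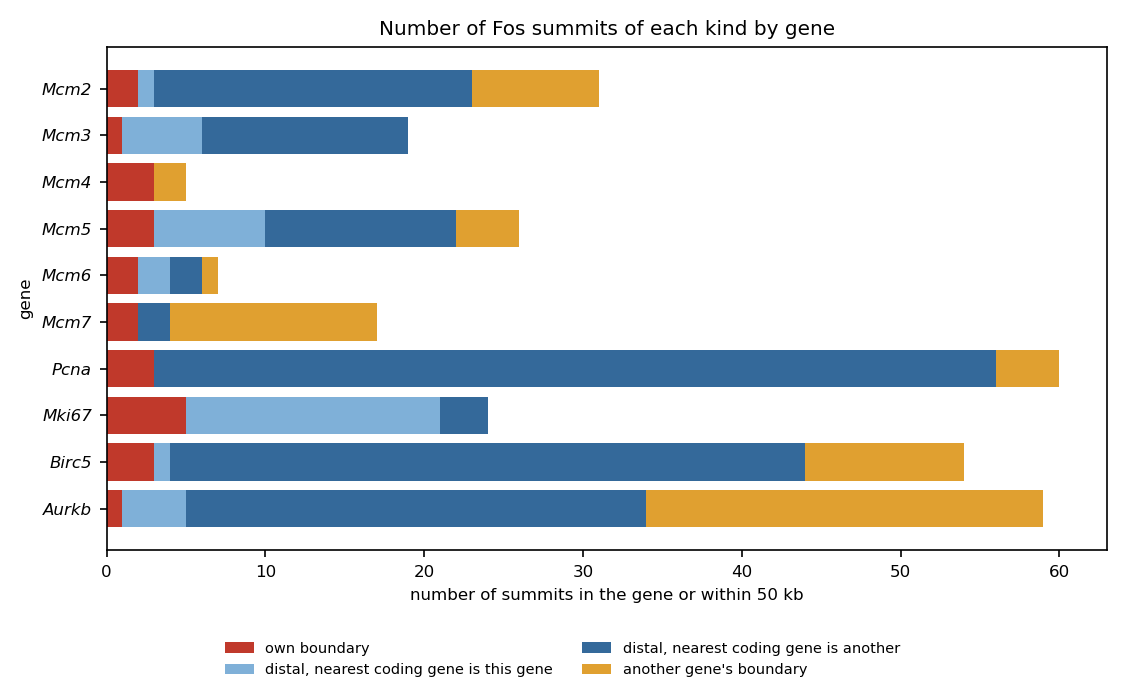
Number of summits of each kind in each gene or within 50 kb of it (bars start at 0). Pcna, with 60 summits, has no distal summit to which it is the nearest coding gene, whereas Mki67 is the nearest coding gene to 16 of its 19.

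Most distal summits were closer to another gene than to the replication or mitosis gene itself. The 10 genes were the nearest protein-coding genes to 36 of the 210 (17.1%), and 8 lay inside them. The same share over all protein-coding genes is not given here. Their medians per gene were 10 distal summits, and 2 when only those nearest to the gene itself were counted. A low share is therefore not shown to be particular to these 10 genes. Of the 36, 16 belonged to Mki67, 7 to Mcm5, 5 to Mcm3, 4 to Aurkb, 2 to Mcm6 and 1 each to Mcm2 and Birc5. Pcna and Mcm7 had none. Assignment rests on distance alone, and no contact between sites and genes was measured.

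In 4 of the 10 genes, Mcm2, Mcm4, Mcm6 and Mcm7, the highest boundary fold was above the highest distal fold, against 26.2% of the 18677 protein-coding genes with any summit. All 4 are helicase genes. A gene with a boundary summit and no distal summit counted as stronger at the boundary by construction, among the 10 and among all genes alike. Mcm4 was such a gene. The boundary of Mcm7 was 17.7 times as strong as its strongest distal summit (fold 4.57), that of Mcm6 2.25 times (12.3) and that of Mcm2 1.59 times (22.1). At the other end, the strongest distal fold was 7.25 times the boundary fold near Mcm3, 6.86 times near Aurkb, 4.97 times near Mki67 and 3.02 times near Birc5. At Pcna (1.62 times) and Mcm5 (1.21 times) the values were closer. Counting only distal summits with no other coding gene nearer, the boundary was stronger in 7 of the 10, and the exceptions were Mki67, Birc5 and Aurkb. Of the 7, Pcna, Mcm4 and Mcm7 had no such distal summit. Under that rule the same held for 44.4% of all protein-coding genes with any summit. With windows of 20 kb the number was also 7, with the same 3 exceptions, against 37.7% of all. With windows of 100 kb (17.7% of all), or with other genes' boundaries counted as distal (18.9%), the number was 3, since distal folds of 52.7 and 240 then exceeded the Mcm2 boundary.

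**Figure D3:**
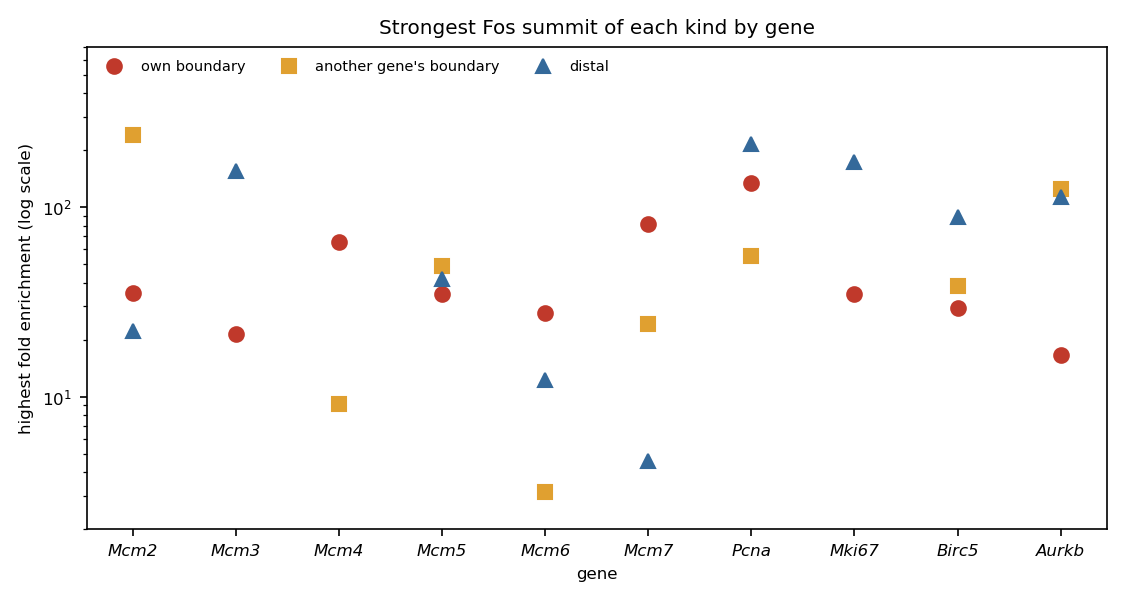
Highest authors' fold enrichment of each kind of summit by gene (log axis); a missing mark means no summit of that kind. The red boundary values lie between 16.6 and 133, and the blue distal values between 4.57 and 216.

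Mki67 was the gene whose strongest outlying signal had no other coding gene closer by. A group of 4 summits in 1 region, chr7:135734918-135736872, lay before its start, and the strongest had fold 173 and 719 fragments (667 to 774) at 19494 bp above the gene. That fold exceeded 99.6% of all summits of the series. The other 3 summits of the region had folds of 30.8, 17.6 and 20.4, and a further summit of fold 30.5 lay 26481 bp above the gene. The 3 distal summits on the other side lay in Ptpre, a receptor tyrosine phosphatase, and had folds of 3.13 to 5.29. All 4 distal summits of fold above 20 near Mki67 were on the side of its start.

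Mcm3 showed a like layout, but with another gene nearer. Of its 18 distal summits 17 lay on the side of its start. The strongest had fold 155 and 644 fragments (595 to 696) at 43745 bp above Mcm3, which was 26491 bp from Paqr8, a membrane progestin receptor gene. A summit of fold 58.9 followed at 47927 bp. The 5 distal summits nearest to Mcm3 itself reached at most fold 6.73. Below the gene there was 1 summit, near Il17f, a cytokine gene of T helper 17 cells, of fold 6.73.

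Pcna lay in the densest surroundings of the 10, and its distal count exceeded that of 97.4% of all protein-coding genes. All 53 distal summits were nearer to a neighbour: 31 to Tmem230 and 22 to Cds2. The strongest, on chr2 at 132212286, had fold 216 with 899 fragments (841 to 960), 37000 bp below Pcna and inside the noncoding RNA gene Gm14051. Next to it were a summit of fold 117 in the same region and 1 of 109 at 42707 bp below Pcna. Closer by, a summit of fold 92.8 lay 13026 bp below Pcna and 3232 bp from Tmem230, and 1 of fold 74.8 lay inside Cds2.

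Around Birc5, 35 of 41 distal summits lay below the gene, on the side of its start. The gene Afmid, a formamidase of tryptophan breakdown, was nearest to 22 of them and held the strongest, of fold 88.8 with 368 fragments (331 to 408) at 16586 bp from Birc5. Tk1, the thymidine kinase that supplies dTTP for replication, was nearest to 10, which reached fold 60.6. The single distal summit nearest to Birc5 stood 2362 bp before its start. It had fold 49.1 and 203 fragments (176 to 233), above the boundary summit of Birc5, and the 2 intervals did not overlap. Beyond the far end of Birc5, 6 distal summits reached at most fold 15.2.

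Most signal near Aurkb lay at neighbouring genes. Its 50 kb flanks touched 6 other coding genes, whose boundaries held 25 summits. The strongest lay 81 bp from Per1, a light- and hormone-induced gene of the circadian clock, with fold 125 and 518 fragments (474 to 565). That region held 11 summits over 6401 bp and also gave the strongest distal summit, of fold 114 inside Per1. The lysosome positioning gene Borcs6 had a boundary fold of 57.2, and a summit of fold 71.9 stood 7072 bp from Tmem107. The Aurkb flanks also held 11 tRNA genes, and 11 of the 11 had a summit within 500 bp, against 52.7% of the 408 tRNA genes in the table. The highest folds there ran from 4.09 to 24.3. Neighbouring tRNA genes shared summits, as n-TDgtc9 and n-TGtcc6 did that of fold 24.3, so the 11 are not separate observations. tRNA genes have near-identical copies, and how reads were placed among them is not stated.

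Mcm5 adjoins Hmox1, the haem oxygenase induced by oxidative stress, which ends 8875 bp below it. The Hmox1 boundary had a fold of 48.8 with 202 fragments (175 to 232), and a distal summit of fold 41.9 lay 9573 bp from Hmox1. The Hmox1 boundary interval lay above that of the Mcm5 boundary, whereas that of the distal summit, 173 fragments (148 to 201), overlapped with it. The 7 distal summits nearest to Mcm5 reached fold 12.7. For Mcm2, 18 of 21 distal summits were nearest to Tpra1, whose boundary reached 72.4 at 3551 bp from Mcm2. Its highest value nearby, fold 240 with 998 fragments (937 to 1062), lay 4 bp from Abtb1, and 1 weak summit of fold 3.37 was nearest to Mcm2 itself.

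Mcm4, Mcm6 and Mcm7 had the fewest distal summits of the 10. Besides its own boundary, Mcm4 had 2 summits of fold 6.49 and 9.14 at the end of Ube2v2, and none elsewhere within 50 kb. Mcm6 had 4 distal summits, 2 inside it of fold 4.81 and 3.85 and 2 in Dars, the aspartyl-tRNA synthetase gene, of fold 9.86 and 12.3. The gene for lactase, Lct, 3257 bp from the other end of Mcm6, carried no summit within the window. Mcm7 lay among 8 coding genes, and 13 summits stood at boundaries nearest to 6 of them, up to fold 24.1 at Zscan21. With 17 summits in all, its window count exceeded that of 52.1% of all protein-coding genes. Its 2 distal summits had folds of 4.09 and 4.57.

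Other genes of replication and mitosis, from lists set out by function, also mostly had a boundary summit: 91 of 96 (94.8%, 95% Wilson interval 88.4 to 97.8), against 62.0% of all protein-coding genes. That interval treats the listed genes as independent draws, which genes chosen by name are not, so it is no test against 62.0%. The 96 genes had a median of 10 distal summits, equal to the median of all genes and below the 19 of the 10 genes above. The median of the highest boundary fold among those with a boundary summit was 33.0, beside 34.8. The highest boundary fold was above the highest distal fold in 48 of the 96, beside 4 of the 10. Among the spindle, condensin and cytokinesis genes this held for 12 of 15, and among the G1 genes for 6 of 19. No test of these differences was made, and how far gene activity accounts for boundary signal was not tested.

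By role, origin licensing and firing genes had a boundary summit in 16 of 18, all but Orc1 and Orc4, subunits of the origin recognition complex. Gins2, of the GINS part of the active helicase, reached fold 210 and Orc6 93.1. Of the polymerase, clamp loader and fork genes 24 of 25 had one, with Rpa3, a subunit of the single-strand binding protein RPA, at 85.4 and Pold1, the catalytic subunit of polymerase delta, at 71.4. Rfc1, the large subunit of the clamp loader, had none. All 8 genes of nucleotide supply had one, among them Dut, the dUTPase, at 87.1.

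Among mitotic genes, the passenger complex partners and kinetochore genes had a boundary summit in 13 of 15, with the spindle checkpoint gene Mad2l1 at fold 77.5 and the kinetochore gene Ndc80 at 52.2. The shugoshin genes Sgo1 and Sgo2a, which protect centromeric cohesion, had none. This list had the fewest distal summits, with a median of 4. The kinases, cyclins and exit genes had one in 15 of 15, with Ccna2, cyclin A2, at 130 and Cks1b at 105. The spindle, condensin and cytokinesis genes also had one in 15 of 15, led by Prc1 at 91.6 and Ect2 at 86.8.

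Cyclins, CDKs and inhibitors of G1 had a boundary summit in 18 of 19, all but Cdkn1a, the p21 inhibitor, and a median highest boundary fold of 30.9. Their median of 22 distal summits lay close to the 19 of the 10 genes, and their median number of boundary summits was 4, against 2.5. No difference between lists was tested. The highest boundary folds were 233 at E2f3 and 158 at Cdkn2d, both above any of the 10. The colonic epithelium markers had a median of 45 distal summits and a median boundary fold of 69.6, above the 10 genes in both.

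**Figure D4:**
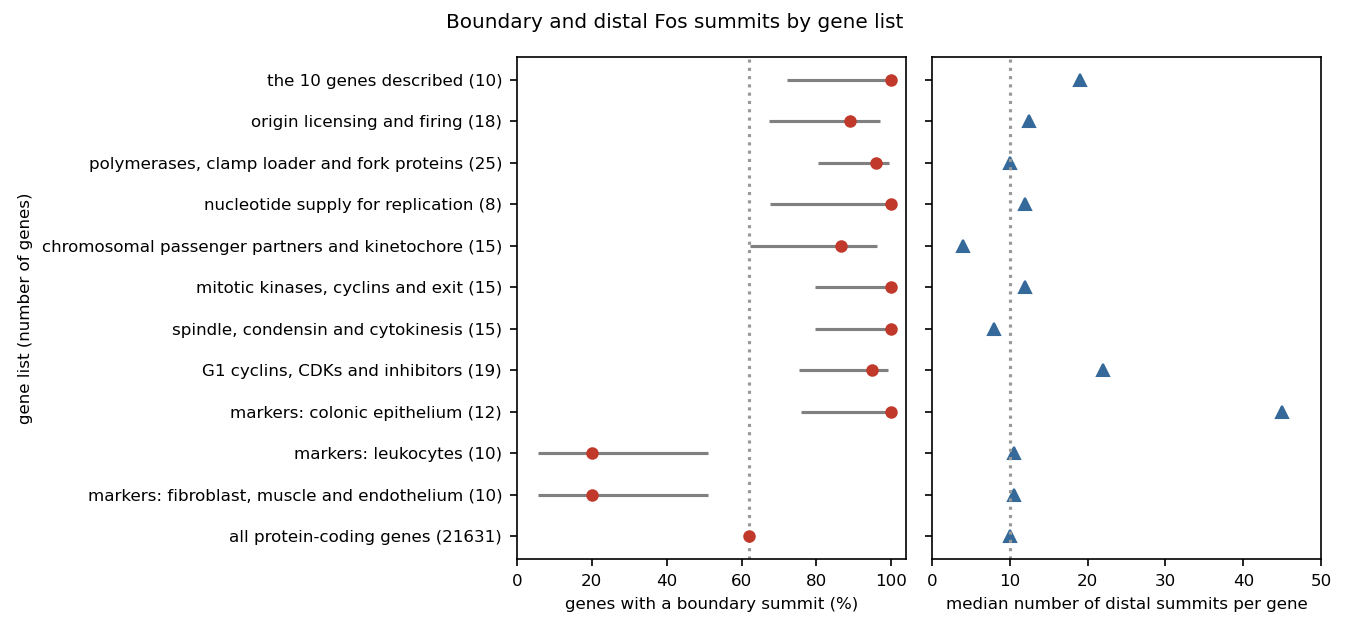
Left, percent of genes with a boundary summit in each list (points, with 95% Wilson intervals as bars); right, median number of distal summits per gene; dotted lines give all protein-coding genes (62.0% and 10). The cell cycle lists sit at 86.7% or more on the left and between 4 and 22 on the right, with the colonic epithelium markers at 45. The intervals treat the listed genes as independent draws, which genes chosen by name are not.

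The number of boundary summits depends on the limit that sorts them, and with 500 bp in place of 1000 bp it fell from 25 to 15. Just inside the 1000 bp limit was the weak Pcna summit at exactly 1000 bp (fold 4.33), and just outside was an Aurkb summit at 1110 bp (fold 2.89). At the 50 kb limit, the outermost summit inside was 49774 bp from Aurkb (fold 2.65), and the nearest outside was 50481 bp from Mcm3 (fold 4.81). No control library without the Fos antibody was analysed here. Cutting of accessible DNA by Tn5 in the absence of Fos therefore has no measured value, at boundaries or elsewhere.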

How the data were processed

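Chromatin from scraped colonic mucosa was profiled with an antibody against Fos in 2 healthy and 2 colitis recovered libraries. Bowtie2, MACS2 and build mm10 are named in the submitters' processing notes, with no version or command. How the libraries were combined is not stated. The deposited list gives, per summit, a fold (a linear ratio over background), the −log10 p-value and −log10 q-value (lowest 1.80) and a score (10 times the −log10 q, cut to an integer). Depth per library is unknown.

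Deposited folds were whole multiples of 0.2405, within 7.75e-05 steps, as (pileup + 1) over (3.16 + 1) gives. The Poisson −log10 p recomputed from these pileups matched the deposited one within 0.01 at 100% of 167414 summits. These were the summits, of 178981, for which a finite value could be computed. The strongest summits, with p-values too small to compute, were outside this check. Recovery of pileups and counting of boundary summits were tested on simulated data with known answers. Distal counts and the assignment to the nearest gene were not tested in this way. Gene spans, strands and promoter windows came from RefSeq tables of GRCm38.p6, the assembly of mm10, with 1-based positions, and 17274 of 21631 coding genes had a strand. Software was Python 3.11.15, numpy 2.4.6, pandas 2.3.3 and scipy 1.17.1. No test was made. The 10 genes, lists and motifs were chosen with earlier results of these data known. Named were all 10 genes, the coding gene nearest to each one's strongest outlying summit, and, per list, the 2 highest boundary folds and genes without a boundary summit; other genes were named after their values were seen, and 1 gene that the rule names is not reported here. 1 list symbol did not match and was not analysed here. Alternatives were stricter −log10 q, 1 summit per region, narrow regions, other boundary and window widths, and other ways to count distal summits.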

Additional observations from a re-analysis of the deposited data

How the results depend on the processing

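All 10 genes had a boundary summit under every alternative run, and the median highest boundary fold was 34.8 in each. Several settings could hardly alter either result. A stricter −log10 q drops weak summits, and 1 summit per region keeps the strongest. The regions of the strongest boundary summits were at most 2119 bp wide, below the 3000 bp limit. The number of boundary summits, 25, was 11 with 1 summit per region and 15 with boundaries of 500 bp. The 210 distal summits became 127 with −log10 q of at least 10 and 109 with 1 summit per region. They became 94 and 316 with windows of 20 and 100 kb, and 36 where the gene itself had to be the nearest coding gene. The median per gene, 19, became 11, 12.5, 7, 29 and 1.5 in the same order. Over all protein-coding genes that median, 10, became 5, 7, 5, 19 and 2. The median highest distal fold, 65.3, was 56.9 with 1 summit per region, 54.7 without regions wider than 3000 bp, 84.9 with boundaries of 500 bp, 13.3 and 83.2 with windows of 20 and 100 kb, 107 with boundaries of other genes counted as distal, and 5.77 for summits nearest to the gene itself. Genes with the stronger fold at the boundary, 4, became 7 with windows of 20 kb and 7 for summits nearest to the gene itself, and 3 with windows of 100 kb and 3 with boundaries of other genes counted as distal, without Mcm2 in both. These settings count fewer or more summits by construction. With boundaries of 500 bp the strongest Mcm7 summit, 868 bp from the upper end of the gene, counted as distal, which left 3 genes. Over single genes, 189 of 260 values moved by less than counting error or 1.5 times. No paired analysis was possible because the list holds no column per library, and leaving out a replicate was not possible for the same reason.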
